A study of Mus musculus with 18 samples.

Results

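Bone marrow derived macrophages of mice with a knockout of ribosomal protein L13a, which the study's title calls specific to macrophages, were set against wild type macrophages with no cytokine added to either. The comparison covered 3 L13a knockout (KO) libraries and 3 wild type (WT) libraries, all untreated, which is 6 of the 18 libraries of the series. Of 21954 genes in the table, 12514 passed the filter on low counts and all of these were tested. The other 12 libraries held both genotypes after IFN or IL4 (interleukin-4), cytokines the labels tie to the M1 and M2 states, with 3 libraries in each of the 4 groups. The labels do not say at which age the mice were used, which type of interferon was added, which recombinase deleted the gene, or whether each of the 3 libraries in a group had its own animal. The p-values therefore measure the spread between libraries, which may be partly technical. Levels are CPM, counts scaled to the normalized library size by the TMM method, and means are given ± SD over n = 3 libraries. Genes count as called where edgeR's quasi-likelihood test gave a Benjamini-Hochberg adjusted p under 0.05.

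L13a belongs to the large subunit of the cytosolic ribosome. In myeloid cells exposed to interferon-gamma it is phosphorylated, leaves the ribosome and joins the GAIT complex, which holds back translation of inflammatory transcripts. Transcripts of ribosomal proteins share a pyrimidine-rich start, the terminal oligopyrimidine (TOP) tract, through which the cell sets their translation and stability together. Loss of a ribosomal protein is known in many cells to free others that bind Mdm2, the ubiquitin ligase that keeps p53 low.

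Rpl13a, the target of the knockout (ENSMUSG00000074129), lies on the minus strand of chromosome 7 in GRCm38, from 45125558 to 45128761. It stood at 156.2, 201.4 and 400.5 CPM in KO libraries 1, 2 and 3, against 617.5, 744.6 and 745.9 CPM in WT libraries 1, 2 and 3. The groups did not overlap, the mean was 252.7 ± 130 CPM in KO and 702.6 ± 73.8 CPM in WT, and KO library 3 kept the most. The log2 fold change was -1.47 (SE 0.392) and was not called (adjusted p = 0.256). The two-sided exact permutation p was 0.1, the smallest that 3 against 3 libraries can give. Counts of a whole gene say nothing of the exons left in the remaining transcripts, and pseudogene copies can take up part of its reads.

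The sequences around the annotated start of Rpl13a, of 2 other ribosomal protein genes with a run of C and T and of Rpl26, the ribosomal protein gene that was called, are shown. Groups of genes in what follows come from lists and were not made by the presence of a tract. Each line gives 20 bases before and 20 bases after the start from RefSeq (GRCm38.p6), and capitals mark the longest run of C and T where it has at least 8 bases. Rpl13a lies at chr7:45128726-45128765 (minus strand), Rps27 at chr3:90213629-90213668 (minus strand), Rpl34 at chr3:130730318-130730357 (minus strand) and Rpl26 at chr11:68901546-68901585 (plus strand).
Rpl13a: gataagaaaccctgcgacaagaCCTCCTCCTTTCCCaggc
Rps27: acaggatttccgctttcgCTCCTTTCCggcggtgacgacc
Rpl34: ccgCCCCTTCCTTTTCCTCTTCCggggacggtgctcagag
Rpl26: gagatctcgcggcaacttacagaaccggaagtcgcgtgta
The run in Rpl13a has 14 bases, that in Rps27 9 and that in Rpl34 20, while the longest run in the Rpl26 window has 4, so that this gene shows no tract here. The run in Rpl34 lies mostly before the annotated start, outside the annotated transcript. For each gene the entry with the longest run was used, here and in the shares below, and Rpl34 had 2 entries. In windows not shown, the longest run had 5 bases in Rps7 and 8 in Rpl39. A run of at least 8 bases, read on the gene's own strand, lay in this window in 31 of 61 cytosolic ribosomal protein genes with an entry (50.8%). The share was 46.2% of 13 translation factors with TOP transcripts, 19.4% of 9667 tested genes and 18.4% of all 27025 genes of the table. Annotated starts can lie some bases from the true start, and a run found this way is a match of letters only.

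Libraries held 19264628 to 28477342 expected counts in the untreated groups. Transcripts of 4 Y-linked genes summed to 185 CPM in WT library 1 and to at most 2.69 CPM in the other 5, and WT library 1 thus stood apart from the WT libraries with which it was averaged. WT libraries 2 and 3 were closer to each other than any other pair, their counts giving a chi-square of 6.01 for each degree of freedom. All other pairs lay between 58.1 and 231. The correlation of log2 CPM across genes, which are not independent, was 0.982 between KO library 3 and WT library 2, and 0.976 between KO library 1 and WT library 1. It was 0.954 between KO libraries 1 and 3 and 0.967 between WT libraries 1 and 2. Over all genes the 6 libraries therefore did not part by genotype. Spread between libraries limits what such a comparison can call. In the fit over all 18 libraries, treated ones included, the common biological coefficient of variation was 0.301.

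The first question was which single genes differed between resting KO and WT macrophages. Of 12514 genes, 10 were called (0.0799%), of which 2 rose and 8 fell in KO. The 8 that fell were Lyz2, Cnbd2, Alpl, Dynlt1b, Rbm44, Ibsp, Rpl26 and Clec11a, and the 2 that rose were Fam177a and Pira2. Without a correction for multiple tests, 379 genes were higher in KO (3.03%) and 565 lower (4.51%) at p under 0.05. The 3 KO values all lay above the 3 WT values in 805 genes (6.43%) and all below them in 958 (7.66%). DESeq2 called 79 genes, 0.558% of the 14155 to which it gave an adjusted p, among them all 10 of edgeR's.

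Lyz2 encodes the lysozyme of macrophages and lies on chromosome 10 (117277331 to 117282321). It stood at 5.78, 5.48 and 1.85 CPM in the KO libraries, against 12108, 10677 and 10767 CPM in the WT libraries. Its KO mean was 0.0391% of the WT mean (log2 fold change -11.34, SE 0.625, adjusted p = 8.65e-08), and it was called under all 17 alternative analyses. The Cre recombinase of a widely used macrophage deleter strain is inserted at Lyz2, so loss of L13a and loss of Lyz2 cannot be told apart here. Lyz1, the intestinal lysozyme gene next to it, stood at 8.30, 13.8 and 5.67 CPM in KO, against 1.64, 2.84 and 2.83 CPM in WT. It was not called (log2 1.92, adjusted p = 0.073) and shares sequence with Lyz2, so its reads are uncertain to that extent.

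Cnbd2, a gene for a protein with a cyclic nucleotide-binding domain (chromosome 2, 156312299 to 156375638), stood at 5.99, 6.86 and 12.7 CPM in KO, against 36.5, 51.2 and 52.6 CPM in WT (log2 -2.45, SE 0.329, adjusted p = 0.00861). Dynlt1b, which encodes a dynein light chain (chromosome 17, 6430112 to 6436296), stood at 35.9, 46.7 and 45.1 CPM in KO, against 80.6, 104.5 and 107.5 CPM in WT (log2 -1.20, SE 0.176, adjusted p = 0.0109). In both genes the highest KO library lay well under the lowest WT library. Cnbd2 was called in 13 of 17 alternatives and lost its call without KO library 1, KO library 2 or WT library 2. Dynlt1b was called in 10 of 17 and lost its call without any single KO library, WT library 2 or WT library 3. Dynlt1b has near-identical copies beside it, and 2 of them, Dynlt1a (log2 -0.72) and Dynlt1f (log2 -0.56), had KO values below all WT values but were not called (adjusted p = 0.569 and 0.532). Another copy, Dynlt1c, had a log2 fold change of -0.20, and its groups overlapped. How the authors' counting split reads between these copies sets their separate values.

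Rpl26, a protein of the large subunit that binds the Trp53 transcript and Mdm2 in other cells, was the single ribosomal protein gene called. It stood at 313.9, 274.5 and 387.6 CPM in KO, against 549.0, 674.9 and 693.9 CPM in WT (log2 -0.97, SE 0.165, adjusted p = 0.0341). Its groups did not overlap, and it was called in 8 of 17 alternatives. It lost its call without KO library 1, KO library 2, WT library 2 or WT library 3. Rbm44, an RNA-binding protein gene known from germ cells, was close to the limit of detection in both groups. It stood at 0.102, 0.0477 and 0.0659 CPM in KO, against 1.15, 1.24 and 0.919 CPM in WT (log2 -3.79, adjusted p = 0.0109). It was called in 11 of 17 alternatives, and not without any single KO library or WT library 2.

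The remaining 3 genes that fell belong to bone and stroma. Alpl, the alkaline phosphatase of mineralizing cells, stood at 0.102, 0.238 and 0.528 CPM in KO, against 3.40, 6.34 and 3.61 CPM in WT (log2 -3.86, SE 0.574, adjusted p = 0.00861). Ibsp, the bone sialoprotein, stood at 0.136, 0.0477 and 0 CPM in KO, against 1.22, 31.0 and 25.9 CPM in WT (log2 -8.15, SE 1.31, adjusted p = 0.0152). WT library 1 was thus far under the other WT libraries in Ibsp. Clec11a, the growth factor osteolectin of bone marrow stroma, stood at 0.0680, 0.143 and 0.231 CPM in KO, against 1.25, 1.82 and 0.884 CPM in WT (log2 -3.07, SE 0.593, adjusted p = 0.0429). Clec11a kept its call in 5 of 17 alternatives and Ibsp in 7, and both lost it when any single KO library was left out, or WT library 2 or 3. Alpl kept its call in 11 and lost it without KO library 1, KO library 2 or WT library 2, and Clec11a lost it also without WT library 1. Summed fibroblast markers stood at 124 to 442 CPM in KO and 906 to 958 CPM in WT. Summed markers of bone-forming cells, a list that holds Alpl and Ibsp, stood at 802, 1004 and 1127 CPM in KO, against 934, 1214 and 1263 CPM in WT, and overlapped. The part of either cell type in these 3 results was not tested. In bulk RNA, fewer stromal cells and less RNA per stromal cell cannot be told apart.

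Fam177a, a gene of little known function on chromosome 12 (55124469 to 55142104), stood at 51.3, 68.1 and 57.7 CPM in KO, against 25.8, 28.2 and 32.1 CPM in WT (log2 1.04, SE 0.146, adjusted p = 0.00861). Its close neighbours Srp54a (log2 1.19, adjusted p = 0.237) and Srp54b (log2 0.54, adjusted p = 0.073), which encode the GTPase subunit of the signal recognition particle, also had KO values above all WT values, but were not called. Pira2, an activating receptor of the paired immunoglobulin-like family (chromosome 7, 3836812 to 3845051), stood at 113.2, 201.1 and 157.5 CPM in KO, against 28.9, 43.8 and 45.4 CPM in WT (log2 2.00, SE 0.322, adjusted p = 0.0224). Of 7 tested members of that family, 5 lay above 0, and Pirb, the inhibitory partner, had 417.8 ± 105 CPM in KO and 350.6 ± 87.3 CPM in WT with overlapping groups. Fam177a was called in 14 of 17 alternatives, and not without KO library 2 or WT library 2. Pira2 was called in 9 of 17, and not without KO library 2, KO library 3 or any single WT library. Pira genes are near copies of one another, so reads may be split between them.

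**Figure D1:**
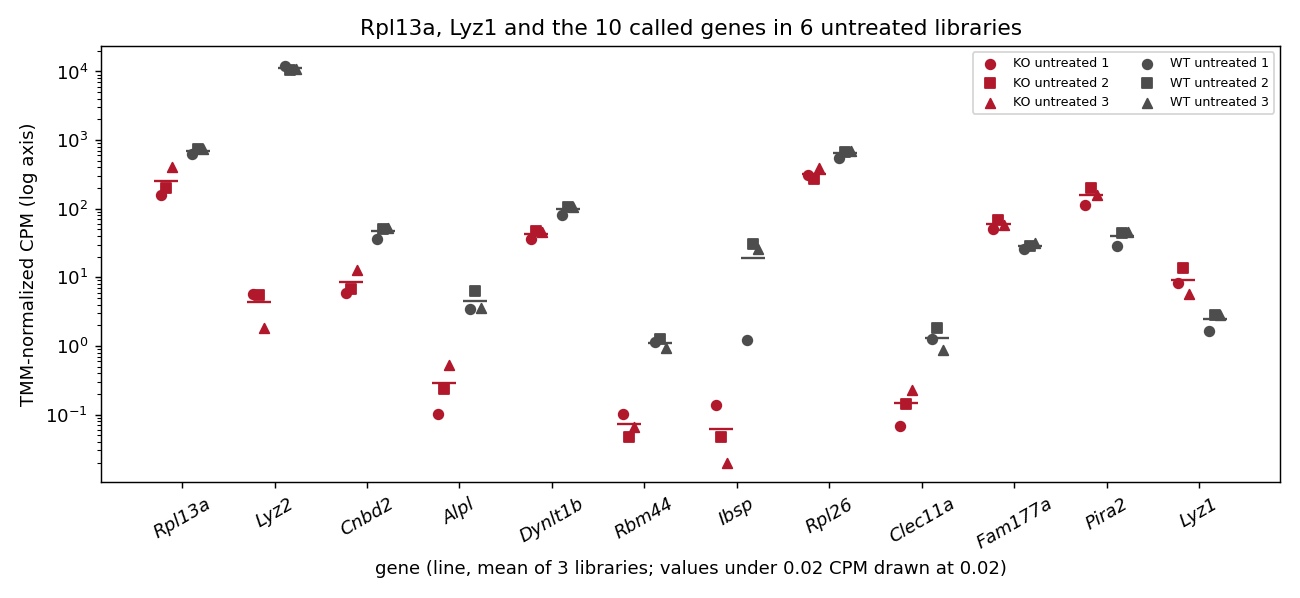
TMM-normalized CPM (log axis) of Rpl13a, the 10 called genes and Lyz1 in the 3 KO (red) and 3 WT (grey) untreated libraries, with lines at the group means. Fam177a and Pira2 lie higher in KO, the other called genes lower, and WT library 1 has the lowest WT value of Ibsp, at 1.22 CPM.

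**Figure D2:**
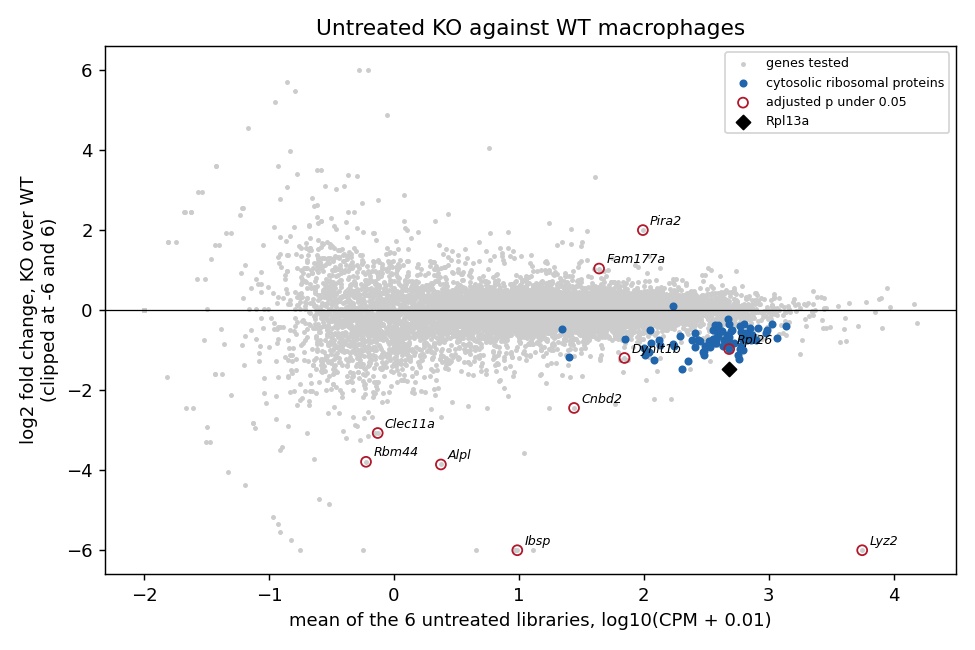
Log2 fold change of KO over WT against the mean level of the 6 untreated libraries for 12514 genes, clipped at -6 and 6. Ribosomal proteins (blue) lie mostly below 0 at high levels, and the 10 called genes (circles) include 3 at levels of a few CPM or less, Alpl, Rbm44 and Clec11a.

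Genes that ranked next by p without being called are given as values. On the higher side in KO, Nnt, the transhydrogenase of the inner mitochondrial membrane, stood at 60.7, 54.4 and 52.1 CPM in KO, against 36.4, 36.4 and 34.0 CPM in WT (log2 0.65, adjusted p = 0.118). Nnt carries a known deletion in some C57BL/6 substrains, and the strain of the mice is not in the labels. Il21r, a cytokine receptor chain, stood at 40.6, 51.3 and 29.9 CPM in KO and 20.9, 18.8 and 17.7 CPM in WT (log2 1.08, adjusted p = 0.231). Smaller differences were seen in Ece1, the endothelin-converting enzyme (log2 0.44), Gpr132, a receptor for oxidized lipids and lactate (log2 0.72), and Agfg2 (log2 0.45). In each of these the 3 KO values lay above the 3 WT values, which the naming rule required. Among the lower ones, 7 of 10 were ribosomal proteins. The other 3 were Rab4a, a small GTPase of endosome recycling (4.61 ± 1.91 CPM in KO and 10.7 ± 0.472 CPM in WT), Commd2 (15.9 ± 1.13 CPM in KO and 25.04 ± 1.67 CPM in WT) and Pdcd10, a regulator of vesicle and cell contacts (54.1 ± 0.904 CPM in KO and 78.9 ± 2.98 CPM in WT). Their log2 fold changes were -1.25, -0.65 and -0.54, with adjusted p of 0.073, 0.0994 and 0.107.

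Cytosolic ribosomal protein transcripts other than Rpl13a stood lower in KO as a family. The log2 fold change lay below 0 in 80 of the 81 tested, against 6139 of all 12514 genes, and 64 had an unadjusted p under 0.05 in that direction, where 4.51% of all genes did. The median was -0.74, against 0.01 over all genes, and the range was -1.47 to 0.10. In 54 of the 81 all KO values lay below all WT values, as in 7.66% of all genes. Rpl26 alone was called by edgeR, and DESeq2 called 23. The single member above 0 was Rpl10 of the large subunit, which together with Rpl26 is named here by its place at an end of the list.

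The 81 genes together summed to 23978.7, 23694.5 and 34592.1 CPM in KO libraries 1, 2 and 3. In WT libraries 1, 2 and 3 they summed to 36873.2, 46889.3 and 47239.6 CPM. The groups did not overlap, but KO library 3 was closer to WT library 1 than to the other KO libraries. Large and small subunits both took part. The 48 large subunit proteins had a median of -0.65 with 47 below 0, and the 33 small subunit proteins had a median of -0.77 with all 33 below 0. Rps27, a zinc finger protein of the small subunit, stood at 126.3, 94.5 and 104.1 CPM in KO, against 225.7, 299.4 and 373.3 CPM in WT (log2 -1.47, adjusted p = 0.066). Its untreated value was that of Rpl13a, but it had a log2 fold change of 0.85 after IFN and -0.93 after IL4. Rps27 also had the shortest effective length of the family, a property described below.

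Rpl17, which lines the exit tunnel of the large subunit, stood at 333.8, 308.3 and 439.0 CPM in KO, against 654.9, 838.5 and 855.2 CPM in WT (log2 -1.12, adjusted p = 0.0566). Rps14, a small subunit protein whose loss marks a human anaemia, stood at 377.1, 251.4 and 418.4 CPM in KO, against 683.7, 880.7 and 866.2 CPM in WT (log2 -1.21, adjusted p = 0.073). Rpl5, which binds Mdm2 when free of the ribosome, stood at 431.1, 445.6 and 626.1 CPM in KO, against 748.5, 881.8 and 872.5 CPM in WT (log2 -0.74, adjusted p = 0.172). None of these groups overlapped, and within each gene WT library 1 was the lowest WT library. The median of the 81 stayed between -0.92 and -0.59 over all 17 alternatives, with 80 or 81 members below 0 in each.

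Length moved with the same libraries. Tested genes were put in 5 equal groups by effective length, known for 94.9% of them. The median log2 fold change was -0.17 in the shortest group, and then -0.03, 0.01, 0.06 and, in the longest group, 0.10. Of the 81 ribosomal proteins, 77 lay in the shortest group, and without them its median was -0.16. Among these other 2300 short genes, 27 were higher and 244 lower at an unadjusted p under 0.05, against 112 higher and 24 lower among the 2377 longest. Of the 4 ribosomal proteins in the next group, Rpl5 had a log2 fold change of -0.74, Rps3 -0.72, Rpsa -0.69 and Rpl4 -0.35, where the group itself stood at -0.03. In the KO libraries the other short genes lay 0.233, 0.190 and 0.078 below the WT mean on the log2 scale, and those of WT libraries 2 and 3 lay 0.050 and 0.040 above it with WT library 1 at 0.065 below. The same property varied within groups of treated libraries, from -0.244 to 0.162 among the 3 WT libraries after IFN. Its part in the ribosomal protein difference was not tested. The ribosomal median was -0.74 and that of the other short genes -0.16, but these sets were not matched in length.

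**Figure D3:**
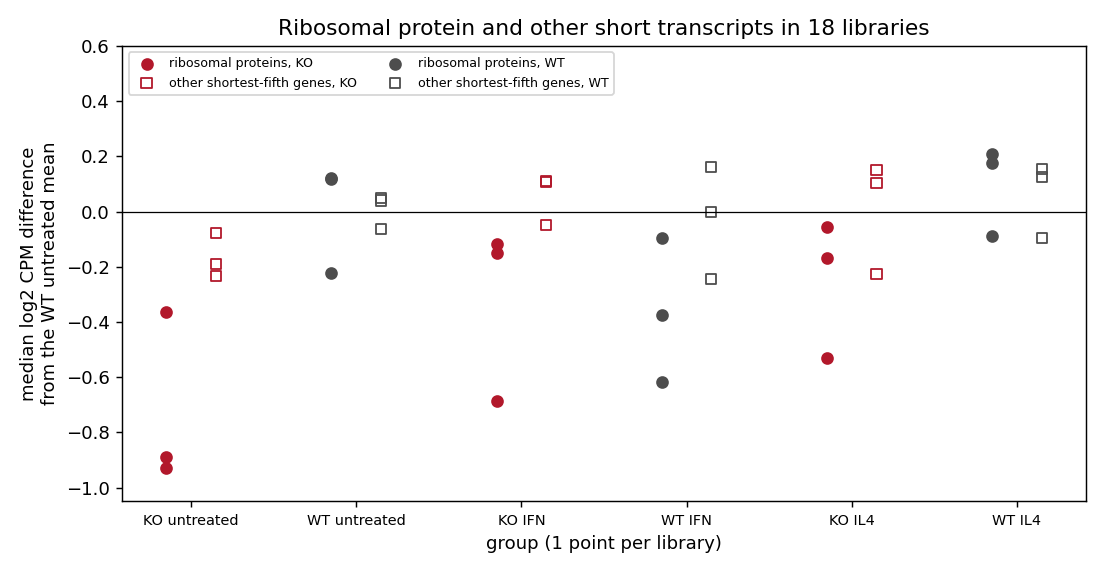
Median log2 CPM difference from the WT untreated mean for 81 ribosomal protein genes (filled circles) and for the other genes of the shortest of 5 length groups (open squares), with 1 point per library and KO left of WT in each treatment. The ribosomal proteins of the 3 untreated KO libraries lie at -0.889, -0.930 and -0.364, below the 3 untreated WT libraries, while KO and WT overlap after IFN and after IL4.

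**Figure D4:**
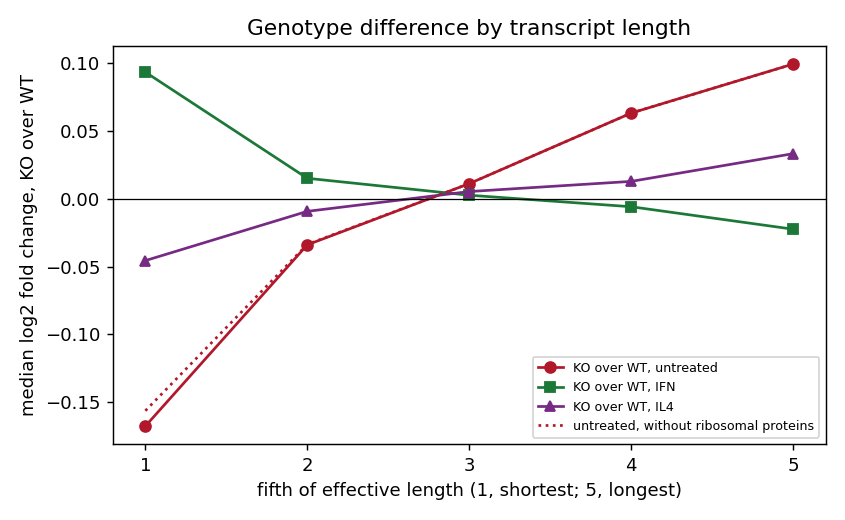
Median log2 fold change of KO over WT in 5 groups of genes by effective length, for untreated, IFN-treated and IL4-treated cells, with the untreated line repeated without ribosomal proteins (dotted). The untreated medians run from -0.17 in the shortest to 0.10 in the longest group, and those after IFN run the other way, 0.09 to -0.02.

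Other parts of the translation machinery were mixed. Translation factors with TOP transcripts had a median of -0.40 over 19 genes, with 18 below 0. At an unadjusted p under 0.05, 9 were lower (4.51% of all genes) and 1 higher (3.03% of all genes), with 0 called by edgeR and 1 by DESeq2. The median was -0.23 without KO library 1 and the groups overlapped in it by library. Tpt1, the abundant translationally controlled tumour protein, stood at 1497, 1166 and 1493 CPM in KO, against 2116, 2350 and 2459 CPM in WT (log2 -0.74, adjusted p = 0.108). The initiation factor subunits Eif3e (log2 -0.51) and Eif3m (log2 -0.53) also had KO values below all WT values. Factors of ribosome biogenesis, which build the subunits in the nucleolus, did not share this direction. Their median was 0.07 over 42 genes, with 27 above 0 and 0 called, and Nop14, a factor of small subunit assembly, stood at 32.8 ± 1.41 CPM in KO and 26.4 ± 0.236 CPM in WT (log2 0.32, adjusted p = 0.393).

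Transcripts of mitochondrial proteins lay mostly below 0, but their list medians by library overlapped between the groups. All 13 mitochondrially encoded transcripts lay below 0 (median -0.46). An unadjusted p under 0.05 was found in 3 of them (4.51% of all genes in that direction), edgeR called 0 and DESeq2 called 1. By library the list lay at -0.661, -0.649 and -0.176 in KO, against -0.418, 0.128 and 0.290 in WT, on the log2 scale relative to the WT mean. KO library 3 thus lay above WT library 1, and the median was -0.26 without WT library 3. The short mt-Nd3, a subunit of complex I, stood at 130.5, 92.5 and 149.0 CPM in KO, against 209.2, 379.4 and 446.1 CPM in WT (log2 -1.47, adjusted p = 0.154), with WT library 1 nearest the KO values. Among 75 nuclear genes of oxidative phosphorylation, 71 lay below 0 (median -0.27). An unadjusted p under 0.05 in that direction was found in 15 (4.51% of all genes), and 0 were called by edgeR or DESeq2. Atp5l of ATP synthase (71.3 ± 13.3 CPM in KO and 140.1 ± 39.6 CPM in WT) and Cox6c of complex IV (74.4 ± 15.3 CPM in KO and 122.0 ± 21.7 CPM in WT) had the lowest p beside Cox7c, and their groups did not overlap. By library KO library 3 (-0.048) lay above WT library 1 (-0.238) in the oxidative phosphorylation list, whose median was -0.42 without KO library 3 and -0.18 without KO library 1. Mitochondrial ribosomal proteins had a median of -0.19, with 64 of 75 below 0, 5 lower at an unadjusted p under 0.05 (4.51% of all genes) and 0 called by edgeR or DESeq2. That median was -0.30 without KO library 3, and between -0.13 and -0.08 without KO library 1, WT library 2 or WT library 3, and KO library 3 (0.022) again lay above WT library 1 (-0.147). In TPM, which moves the median of all genes to between 0.15 and 0.17 above 0, the median of the oxidative phosphorylation genes was -0.10 with a pseudocount of 1.

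Genes of the interferon responses stood lower in KO although no interferon was added. In the type I interferon signature all 45 tested genes lay below 0 (median -0.63). Of these, 8 had an unadjusted p under 0.05 (4.51% of all genes), 17 had KO values below all WT values (7.66% of all genes), 0 were called by edgeR and 1 was called by DESeq2. Zbp1, a sensor of Z-form nucleic acid, stood at 2.52, 1.62 and 3.73 CPM in KO, against 4.72, 9.76 and 10.4 CPM in WT (log2 -1.61, adjusted p = 0.324). Ifi203, a nuclear DNA-binding protein, stood at 27.0, 19.1 and 25.5 CPM in KO, against 29.8, 45.3 and 49.8 CPM in WT (log2 -0.80). In both genes WT library 1 lay close to the KO libraries, and in Isg15, the ubiquitin-like modifier, it lay among them, with 4.87, 9.39 and 13.5 CPM in KO and 5.39, 22.2 and 22.4 CPM in WT.

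The list as a whole showed the same order. Its median lay 0.692, 0.424 and 0.467 below the WT mean in KO libraries 1, 2 and 3, and 0.447 below it in WT library 1, while WT libraries 2 and 3 lay 0.207 and 0.229 above. The groups thus overlapped, with WT libraries 2 and 3 alone above the KO libraries. The list median was -0.76 without WT library 1 and -0.43 without WT library 3. The 39 tested genes of the interferon-gamma response had a median of -0.30, with 31 below 0. At an unadjusted p under 0.05, 9 were lower (4.51% of all genes), of which edgeR called 0. DESeq2 called 2 genes of that list. The activating Fc receptors Fcgr4 (20.7, 16.0 and 19.9 CPM in KO, against 34.0, 38.5 and 39.6 CPM in WT, adjusted p = 0.223) and Fcgr1 (65.8, 39.6 and 64.1 CPM in KO, against 116.9, 106.6 and 96.9 CPM in WT, adjusted p = 0.37) parted the genotypes with WT library 1 on the WT side. The transcription factor gene Irf1 (log2 0.01) had overlapping groups, and neither MHC class I genes (median -0.12 over 23) nor MHC class II genes (median 0.05 over 13) held a gene with an unadjusted p under 0.05.

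Targets of p53 stood higher in KO. Of 31 tested, 25 lay above 0 with a median of 0.42. At an unadjusted p under 0.05, 10 were higher (3.03% of all genes) and 0 lower (4.51% of all genes). Called by edgeR were 0, while DESeq2 called 2 (0.558% of all genes to which it gave an adjusted p). Mdm2 itself stood at 214.9, 219.8 and 206.1 CPM in KO, against 142.6, 132.6 and 133.3 CPM in WT (log2 0.65, adjusted p = 0.67). Cdkn1a, the inhibitor p21 of the cell cycle, stood at 472.2, 406.0 and 328.4 CPM in KO, against 265.0, 192.4 and 197.5 CPM in WT (log2 0.88, adjusted p = 0.232). Aen, an exonuclease that p53 induces, stood at 37.7, 33.6 and 38.1 CPM in KO, against 24.3, 23.8 and 23.1 CPM in WT (log2 0.62, adjusted p = 0.173). All 3 genes parted the genotypes without overlap. The list median by library did not, since KO library 3 at 0.131 lay below WT library 1 at 0.217. Without KO library 1 the list median was 0.23, and without KO library 3 it was 0.57.

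Genes of DNA replication and mitosis had a median of -0.45 over 47 genes, with 45 below 0. At an unadjusted p under 0.05, 1 gene was lower (4.51% of all genes), and 0 were called. Their level depended on the library more than on the genotype. The list lay 1.70 and 0.539 below the WT mean in KO libraries 1 and 2, but 0.247 above it in KO library 3, which was higher than every WT library. Mki67, a marker of dividing cells, stood at 55.6, 154.8 and 187.9 CPM in KO, against 154.7, 159.9 and 170.7 CPM in WT. Without KO library 1 the list median was -0.09, and without KO library 3 it was -1.01.

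**Figure D5:**
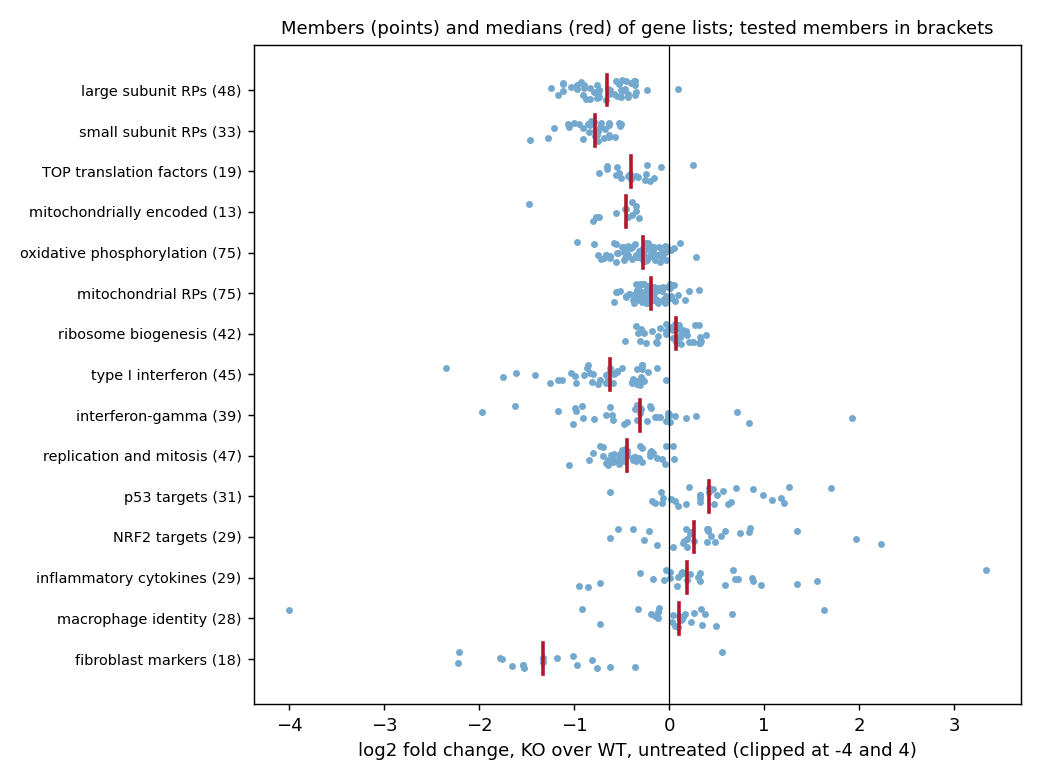
Log2 fold changes of KO over WT in untreated cells for the tested members of 15 gene lists (points, clipped at -4 and 4) with the median of each list (red). Both ribosomal protein lists, the type I interferon list and the fibroblast markers lie almost wholly below 0, while most p53 targets lie above.

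Cytokine, redox and metabolic genes gave smaller differences. Of 29 inflammatory cytokines and feedback genes, 22 lay above 0 (median 0.19). At an unadjusted p under 0.05, 6 were higher (3.03% of all genes) and 1 lower (4.51% of all genes), and 0 were called. The list median was higher in every KO library (lowest 0.067, KO library 3) than in every WT library (highest 0.028, WT library 2). Tnf stood at 33.4, 62.8 and 46.9 CPM in KO, against 31.1, 28.2 and 30.5 CPM in WT (log2 0.67, adjusted p = 0.459), and Il1b had overlapping groups between 0.710 and 2.62 CPM. KO library 2 stood apart here, with 206.5 CPM of the immediate early gene Egr1 where the other 5 libraries held 5.44 to 8.61 CPM. Among 29 genes of glutathione and NRF2 defence, 23 lay above 0. At an unadjusted p under 0.05, 4 were higher (3.03% of all genes) and 2 lower (4.51%), and 0 were called by edgeR or DESeq2. Their median was 0.27, and 0.47 without KO library 1. By library it was higher in every KO library (lowest 0.087, KO library 1) than in every WT library (highest 0.078, WT library 3). Slc7a11, the cystine importer, stood at 10.04, 10.01 and 7.16 CPM in KO, against 3.95, 3.51 and 3.18 CPM in WT (log2 1.35, adjusted p = 0.398). The glutathione peroxidase Gpx4 went the other way, at 225 ± 37.8 CPM in KO and 327.4 ± 4.70 CPM in WT (log2 -0.54, adjusted p = 0.397).

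In glycolysis, 19 of 26 genes lay above 0 (median 0.13), and the liver-type phosphofructokinase Pfkl stood at 75.0 ± 12.4 CPM in KO and 52.1 ± 1.46 CPM in WT. The glucose transporter Slc2a1 stood at 51.6, 81.6 and 68.7 CPM in KO, against 37.5, 40.1 and 45.3 CPM in WT (log2 0.71, adjusted p = 0.393). Its groups did not overlap. Iron genes held 10 of 17 above 0, where 6360 of all 12514 genes lay. At an unadjusted p under 0.05, 4 were higher (3.03% of all genes) and 1 lower (4.51% of all genes), and 0 were called. The iron list median was higher in every KO library than in every WT library. Above 0 were the transferrin receptor Tfrc (158.6 ± 42.3 CPM in KO and 93.9 ± 4.02 CPM in WT, adjusted p = 0.487) and the iron importer Slc11a2 (84.0 ± 10.6 CPM in KO and 57.0 ± 3.87 CPM in WT, adjusted p = 0.347). Proteasome genes had a median of -0.19 with 25 of 34 below 0, which was 0.00 in TPM with a pseudocount of 1, -0.06 without KO library 1 and -0.33 without KO library 3. By library KO library 3 (0.025) lay above WT library 1 (-0.229). The lists of cholesterol synthesis, Toll-like receptors and lysosome held no gene with an unadjusted p under 0.05.

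The macrophage markers Adgre1, Csf1r, Spi1 and Cd68 were present in both genotypes, while Lyz2 was nearly absent in KO. The F4/80 gene Adgre1 stood at 1811, 2579 and 1873 CPM in KO, against 1711, 1995 and 2008 CPM in WT, and the growth factor receptor Csf1r at 4188, 3935 and 3073 CPM in KO, against 3727, 3317 and 3365 CPM in WT. Their groups overlapped, as did those of the lineage factor gene Spi1 (log2 0.03) and of Cd68 (log2 0.12). Of 28 identity genes, 18 lay above 0 with a median of 0.10, and Lyz2 alone was called. At an unadjusted p under 0.05, 1 was higher (3.03% of all genes) and 3 lower (4.51% of all genes). All KO values lay below all WT values in 4 of the 28 (7.66% of all genes), Lyz2 and Fcgr1 among them. They lay above all WT values in 2 (6.43% of all genes). Cebpb, a transcription factor of inflammatory macrophages, stood at 204.7, 364.0 and 238.4 CPM in KO, against 163.8, 173.8 and 171.1 CPM in WT (log2 0.67, adjusted p = 0.508). C1qb, a complement subunit, stood at 577.5, 760.7 and 679.9 CPM in KO, against 1271, 1001 and 1033 CPM in WT (log2 -0.71, adjusted p = 0.629).

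Among markers of other cells, the list medians of fibroblasts, bone-forming cells and B cells were lower in every KO library than in every WT library. The summed level of fibroblast markers was 255, 124 and 442 CPM in KO libraries 1, 2 and 3, against 906, 958 and 951 CPM in WT libraries 1, 2 and 3. Of 18 tested, 17 lay below 0 (median -1.33), 4 had an unadjusted p under 0.05 (4.51% of all genes), 11 had KO values below all WT values (7.66% of all genes) and 0 were called by edgeR or DESeq2. Col1a1, the main collagen of fibroblasts and bone, stood at 49.0, 27.8 and 98.5 CPM in KO, against 184.4, 322.7 and 310.6 CPM in WT (log2 -2.22, adjusted p = 0.493). The groups did not overlap. Of the 20 fibroblast markers, 0 to 2 were at a count of 0 in a KO library and 1 to 2 in a WT library. Markers of bone-forming cells had a median of -0.64 over 10 tested, with 7 below 0 and 3 above. At an unadjusted p under 0.05, 4 were lower (4.51% of all genes), and 2 were called, Alpl and Ibsp. Of the B cell markers 2 were tested and 0 had an unadjusted p under 0.05. Neutrophil markers summed to 37.0 to 94.9 CPM in KO and 32.9 to 82.3 CPM in WT, markers of T and NK cells to 4.88 to 6.67 CPM in KO and 3.89 to 9.02 CPM in WT, and markers of B cells to 3.15 to 8.51 CPM in KO and 6.61 to 11.1 CPM in WT.

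GAIT complex members and kinases, a list that includes Rpl13a, did not share a direction. Of 9 tested, 4 lay below 0 and the median was 0.03. Eprs, the synthetase that brings the complex to its targets, stood at 99.8 ± 13.2 CPM in KO and 96.3 ± 15.3 CPM in WT, and Syncrip at 156.9 ± 39.4 CPM in KO and 161.7 ± 37.4 CPM in WT. Gapdh stood at 1114, 1979 and 2373 CPM in KO, against 1238, 2005 and 1988 CPM in WT. The groups overlapped in each of these 3 partners of L13a. Of 6 tested transcripts studied as targets of the complex, 0 had an unadjusted p under 0.05. Vegfa varied more within groups than between them, at 108.6, 53.8 and 17.6 CPM in KO and 66.9, 21.9 and 16.4 CPM in WT.

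By position, the medians of genes near Rpl13a and near Lyz2 lay close to that of all genes (0.01). At an unadjusted p under 0.05, 3.03% of all genes were higher and 4.51% lower, and 0.0799% were called. Within 5 Mb of Rpl13a, 99 genes were tested, with a median of 0.05, 3 higher and 3 lower at an unadjusted p under 0.05, and Clec11a called. Within 5 Mb of Lyz2, 36 genes had a median of 0.07, with 2 higher, 3 lower and 0 called. Chromosome X held 4 genes higher and 27 lower among 400 tested at an unadjusted p under 0.05, with a median of -0.08. The Y-linked transcripts stood high in WT library 1, and the part of that library's origin in these values was not tested.

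Whether the genotype difference was particular to resting cells was tested as the untreated log2 fold change minus the mean of those after IFN and after IL4. Y-linked transcripts summed to 168 and 134 CPM in WT libraries 4 and 5 after IFN. They summed to 191 and 141 CPM in WT libraries 7 and 8 after IL4, and to at most 3.19 CPM in the other treated libraries. WT libraries with such transcripts thus weighed differently in the untreated and the treated side of this contrast. With Y-linked transcripts as a covariate in edgeR, the contrast gave 0 calls. At an unadjusted p under 0.05, 331 genes then lay below 0 and 107 above. Beyond that fit, the part of these libraries in the contrast was not tested. No gene was called (0%), by edgeR or by DESeq2, in any of the settings run, while 430 genes lay below 0 (3.44%) and 163 above (1.3%) at an unadjusted p under 0.05 in edgeR, and DESeq2 gave 676 in both directions. In the treated cells edgeR called 8 genes after each cytokine (0.0639% each). Lyz2, Cnbd2, Fam177a and Pira2 were called in all 3 treatments. Fam177a stood at 54.7 CPM in KO and 27.6 CPM in WT after IFN, and at 51.1 CPM in KO and 27.1 CPM in WT after IL4. Its KO values lay above all WT values in each treatment.

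Ribosomal proteins had a different value in each treatment. The median of the 81 was -0.74 in untreated cells, -0.01 after IFN and -0.32 after IL4, with 80, 42 and 77 members below 0. The difference between untreated and treated effects had an unadjusted p under 0.05 in 39 of the 81, all below 0 (3.44% of all genes). The lowest adjusted p among them was 0.906. Rpl26 had a log2 fold change of -0.97 untreated, 0.13 after IFN and -0.25 after IL4. Fibroblast markers had medians of -1.33 untreated, 0.94 after IFN and 0.83 after IL4. For the difference, 10 of 18 had an unadjusted p under 0.05, all below 0 (3.44% of all genes). The summed level of these markers was 48.6, 251 and 853 CPM in KO after IFN, against 212, 101 and 217 CPM in WT after IFN. After IL4 it was 201, 199 and 1088 CPM in KO, against 220, 351 and 499 CPM in WT. The groups overlapped after both cytokines, and 1 KO library in each held most of the markers. Type I interferon genes had medians of -0.63, 0.02 and -0.28 in the same order, with 1 of 45 under that p, below 0 (3.44% of all genes). Targets of p53 had medians of 0.42 untreated, 0.29 after IFN and 0.35 after IL4. For the difference, 2 of 31 had an unadjusted p under 0.05, both above 0 (1.3% of all genes). Rpl13a itself had log2 fold changes of -1.47, -0.90 and -0.95, and the unadjusted p of the difference was 0.26.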

How the data were processed

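Per gene and library, the authors deposited RSEM expected counts, TPM values and a TPM-based signal that they had rescaled by median normalization, which entered no test. Per the submitters' processing notes, Bowtie 0.12.8 and RSEM 1.2.3 were used with mm10, and per the labels' protocols the RNA was poly-A selected. The labels' protocols allow for a directional or a non-directional library, and strand use in counting is not given in the sources used here. Expected counts (21.5% not whole) were rounded, filtered with filterByExpr, normalized by TMM and fitted over all 18 libraries with 1 coefficient per group by the robust quasi-likelihood method of edgeR 4.0.16 in R 4.3.3. Fold changes are KO over WT. Adjusted p-values follow Benjamini and Hochberg over 12514 genes. Standard errors were taken as the fold change on the log2 scale divided by the root of the F statistic. Other fits used DESeq2 1.42.0 and limma 3.58.1 on the deposited TPM, as log2 after adding a pseudocount of 1 or 0.1. Effective length is expected count over TPM. Positions come from GENCODE vM21 on GRCm38, where 99.55% of genes matched, and start windows from RefSeq. Code was tested on simulated data.

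The 49 gene lists, the naming rule and the choice of tests were made with earlier results of these data known. The newer form of edgeR's fit was kept with the counts of both forms seen. Genes named were those called, up to 10 per direction next in p with at least 5 CPM and no overlap of groups, the 3 members of lowest p of each list with at least 5 tested members, and preset genes, of which a selection is given. Neighbours, copies and partners of such genes (the other Dynlt1 genes, Pirb, Rpl10, Rpl4, Rpl5, Rps3, Rpsa) were chosen after their values were seen. Lists of snoRNAs and nuclear-retained RNAs were not analysed here.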

Additional observations from a re-analysis of the deposited data

Results flagged for a closer look

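Heatr1 and Il18 were flagged because all KO libraries lay on one side of the WT libraries in untreated cells and on the other side after a cytokine. In untreated cells alone, KO values lay above all WT values in 6.43% of all genes and below them in 7.66%. The share of all genes that changed sides in this way is not given here. Heatr1, a factor of ribosomal RNA transcription, had a log2 fold change of 0.27 in untreated cells and -0.29 after IFN. Il18, an inflammasome cytokine, had one of -0.85 in untreated cells and 0.51 after IL4. Neither difference between the 2 treatments was tested on its own, and neither gene was called in any treatment.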

How the results depend on the processing

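The count of 10 called genes in untreated cells became 79 in DESeq2 (23 higher, 56 lower), 96 with the replicate block, 39 with Y-linked transcripts as a covariate (5 higher, 34 lower), 5 with WT libraries 2 and 3 summed, 4 with the older quasi-likelihood fit, an alternative chosen after seeing the data, and 1 in the 6 untreated libraries alone, where fewer libraries give the estimate of spread. Leaving out 1 library gave 1 to 11 calls: 3 without KO 1, 2 without KO 2, 7 without KO 3, 11 without WT 1, 1 without WT 2 and 6 without WT 3. It was 9 or 10 without the filter, with DESeq2 size factors and without the robust option. In TPM, limma called 11 genes (6 higher, 5 lower) with a pseudocount of 1 and 8 (4 and 4) with 0.1, against 2 higher and 8 lower in edgeR. The cause of these differences was not tested. Rpl13a kept its direction throughout, at -1.97 to -1.22 when 1 library was left out, and was called by DESeq2 (log2 -1.46, adjusted p = 0.0358) and with the replicate block (log2 -1.59, adjusted p = 0.0382). Its adjusted p ran from 0.0358 to 0.993 over the alternatives. Whether the title numbers pair the libraries, as the replicate block takes them to, is not settled here. Deviations of same-numbered KO and WT libraries correlated at 0.597, 0.042 and 0.358. KO 1 correlated with WT 2 and WT 3 at -0.417 and -0.414. KO 2 correlated at 0.058 with WT 3 and KO 3 at 0.375 with WT 2, slightly more than with the same number. WT 2 and WT 3 were the closest pair of libraries. The difference between untreated and treated effects gave 0 calls in each of the 16 alternatives. No named gene or list reversed its direction beyond the spread between libraries. The ribosome biogenesis median lay at -0.05 without KO 3, at 0.19 without KO 1 and at 0.25 in TPM with a pseudocount of 0.1. In TPM with a pseudocount of 1, where the median of all genes is 0.15, list medians lay at -0.05 for mitochondrial ribosomal proteins, -0.25 for mitochondrially encoded transcripts, -0.35 for type I interferon, -0.14 for interferon-gamma and -0.84 for fibroblast markers. The macrophage identity median lay at 0.01 without KO 1 and at 0.23 without KO 3. The parts of depth and of the spread between libraries in these counts of calls were not tested.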
